A study of Nicotiana tabacum with 9 samples.

Results

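In growing tobacco pollen tubes, 82 genes were more abundant at 6 h than at 3 h when the tubes stayed at room temperature (RT), and less abundant at 6 h when the later 3 h were spent under heat stress (HS). They were picked from their own levels. Counts per Mio counts (CPM) were scaled with edgeR's TMM factors over all 9 libraries, and a gene was taken where its RT 6 h mean was at least 1 CPM, the log2 ratio of the RT 6 h to the RT 3 h mean was at least 0.8, and the log2 ratio of the HS to the RT 6 h mean was at most -0.8. LOC107798522 was to be left out by name, and it did not meet these limits in any case. The 82 genes are part of the 24013 genes that exceeded 0.5 CPM, here on library sizes without TMM, in 2 or more libraries and of the 74044 genes in the count tables. The level and growth limits alone were met by 335 genes, so that the 82 made up 24.5% of the genes raised by growth, and 253 growth-raised genes did not meet the heat limit.

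Pollen of the tobacco cultivar Samsun-NN was pooled from several plants in each experiment and grown on cellophane over solid medium. Tubes of 3 conditions were sequenced, with 3 samples each. HS 3 + 3 h tubes grew for 3 h at RT and then for 3 h at 37°C, RT 6 h tubes grew for 6 h at RT, and RT 3 h tubes grew for 3 h at RT, so that RT 3 h is the state at which the heated tubes left RT. The labels name no mutant, transgene or agent, and the 3 conditions share the cultivar and the medium. The sources used here do not say if replicates had pollen pools of their own, so p-values measure only the spread between these samples, which may be technical.

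Pollen tubes elongate by tip growth, in which secretory vesicles carry membrane and cell wall material to the apex. The grain brings a large stock of stored mRNA to germination, and further transcripts are made while the tube grows. Under heat, plant cells direct transcription and translation toward chaperones, and many other transcripts decline.

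Between 14931693 counts, in HS replicate 1, and 26772286 counts, in RT 3 h replicate 2, fell on genes in each library, and 0.5 CPM corresponded to 7.47 counts in the shallowest and 13.4 counts in the deepest. Of 10 pollen markers, among them profilin genes and the pollen polygalacturonase NPG1, all averaged at least 1 CPM in every condition. Of 13 photosystem and chlorophyll-binding protein genes as markers of green tissue, 9 had at most 3 counts in every library, and the 13 together had between 0.229 and 0.593 CPM per library. In a bulk sample, fewer tubes that express a gene and less RNA per tube cannot be told apart. The libraries were not stranded, and tobacco is an allotetraploid with many near-identical gene copies, between which reads can be split.

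The values that chose the 82 genes are given first, as a description without a test. Their CPM summed to 172, 164 and 167 in HS replicates 1 to 3, to 426, 437 and 452 in RT 6 h replicates 1 to 3, and to 170, 182 and 186 in RT 3 h replicates 1 to 3. The RT 6 h sums lay above all others, while the HS and RT 3 h sums overlapped. On average this was 168 ± 4.12 CPM under HS, 438 ± 13.0 CPM at RT 6 h and 179 ± 8.65 CPM at RT 3 h (SD, n = 3 each). The median log2 ratio of RT 6 h to RT 3 h was 1.30, with a range of 0.80 to 8.56, and that of HS to RT 6 h was -1.37, with a range of -4.66 to -0.80. The HS level was 38.8% of the RT 6 h level at the median gene. In edgeR's quasi-likelihood test, 55 of the 82 were called higher at RT 6 h than at RT 3 h past an absolute log2 fold change (log2FC) of 1 and an FDR of at most 0.005, where 0.911% of the 23043 genes tested were called higher. Past the same limits 63 of the 82 were called lower under HS than at RT 6 h, where 2.87% of 23053 genes were called lower, and 46 genes passed in both. The choice of the genes fixed both directions, and nothing is read from these counts. Every one of the 82 passed the low-count filter of those comparisons, and it could do so through its RT 6 h libraries alone.

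**Figure D1:**
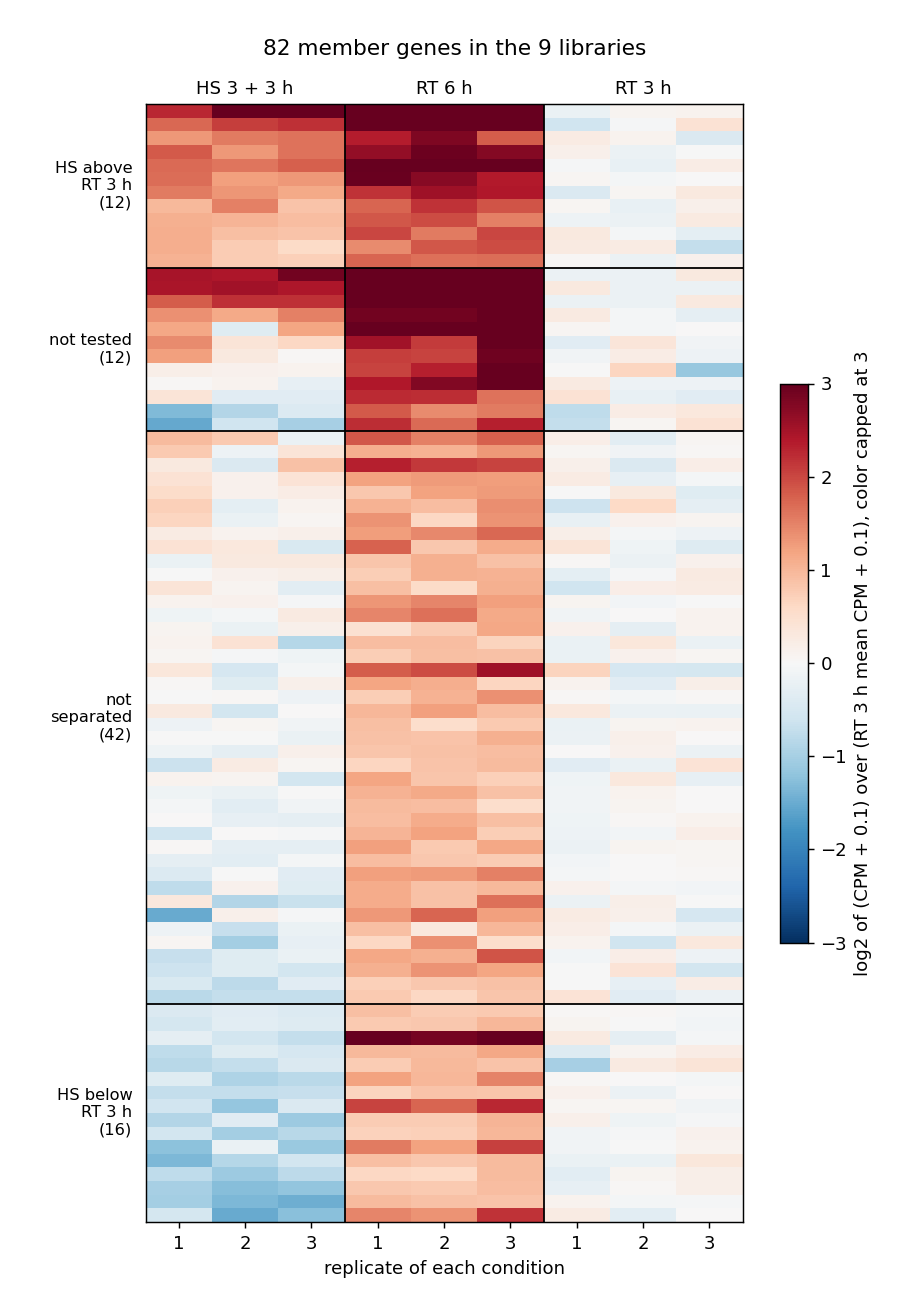
Levels of the 82 genes (rows) in the 9 libraries (columns, HS 3 + 3 h left, RT 6 h middle, RT 3 h right), colored by log2 of (CPM + 0.1) over (RT 3 h mean CPM + 0.1) and grouped by how HS compared with RT 3 h. The RT 6 h columns are raised throughout by the choice of genes, and the HS columns are above RT 3 h in 12 genes, below in 16, not separated in 42 and not tested in 12.

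The genes were mostly of modest abundance. RT 6 h means reached from 1.00 to 23.9 CPM with a median of 2.83 CPM, and the 10 genes with the highest RT 6 h means carried 42.9% of the summed level under HS, 42.1% at RT 6 h and 47.4% at RT 3 h. Just inside the limit on growth were LOC107784519, LOC107766821 and LOC107795328, with log2 ratios of RT 6 h to RT 3 h of 0.801, 0.804 and 0.813, and just outside were LOC107762821, LOC107801954 and LOC107801883, at 0.798, 0.795 and 0.787. At the limit on heat, LOC107783799, LOC107804894 and LOC107818905 were inside with log2 ratios of HS to RT 6 h of -0.801, -0.820 and -0.822. Outside it were LOC107760557, LOC107759834 and LOC107807598, at -0.787, -0.784 and -0.770. At the limit on level, LOC107800488, LOC107782371 and LOC107802945 had RT 6 h means of 1.00, 1.03 and 1.03 CPM, whereas LOC107832546, LOC107823835 and LOC107818993 had 0.985, 0.985 and 0.962 CPM. The values ran on without a gap across each limit, and log2 limits of 1 in place of 0.8 left 44 genes.

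The choice left only partly open where the heated tubes lay relative to the state before heat onset, HS against RT 3 h. This ratio was no limit of its own, although its libraries are those used to pick the genes. On the log2 scale it is the sum of both limited ratios, RT 6 h to RT 3 h and HS to RT 6 h. Their limits were of equal size and opposite sign and shared the RT 6 h mean. A median near 0 can thus follow from the choice. The medians below are therefore a description. No return of the set to the RT 3 h level is read from them. Over the 82 genes the median log2 ratio of HS to RT 3 h was -0.05, with quartiles of -0.41 and 0.42. Over those of the 24013 genes with counts in both conditions it was 0.005, with quartiles of -0.40 and 0.41. The ratio was below 0 in 47 genes and above 0 in 35, and its size was under 0.5 in 43 genes and under 1 in 59. As a share of the growth rise, (HS - RT 3 h) over (RT 6 h - RT 3 h), a median of -2.81% was left under HS, with a range of -69.0% to 50.1%. The median log2 ratio was -0.34 on library sizes without TMM, a scaling that moved the median log2FC of all genes to -0.28.

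Of the 82 genes, 70 were tested between HS and RT 3 h, and the other 12 did not pass the filter, which asked for over 0.5 CPM, on library sizes without TMM, in 2 or more of these 6 libraries. With TMM some of the 12, such as LOC107832826, reached over 0.5 CPM in 2 or more of them. Past the limits on size and FDR, 10 of the 70 rose (14.3%) where 7.36% of the 23373 genes tested did, and 2 fell (2.86%) where 4.92% did. At an FDR of at most 0.05 of any size, 12 rose (17.1%, against 25.3% of all genes tested) and 16 fell (22.9%, against 24.1%). Changes of any size were thus found in 40.0% of the 70 genes and in 49.4% of all genes tested. The choice of the genes bears on these shares too, and nothing is read from how they differ. Some low genes passed this filter only through the condition in which they were higher. Among them were LOC107792716 through HS, and LOC107795328 and LOC107773293 through RT 3 h. Calls on such genes are a description. The remaining 42 were not separated. Their median log2 ratio was -0.06, and the 95% interval of the log2FC lay within 1 of 0 on both sides for 32 of them, with bounds between -1.74 and 1.37 over the 42. The count of falls of any size depended on the setting, with 8 by DESeq2, 30 without TMM and 10 without RT 3 h replicate 3.

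**Figure D2:**
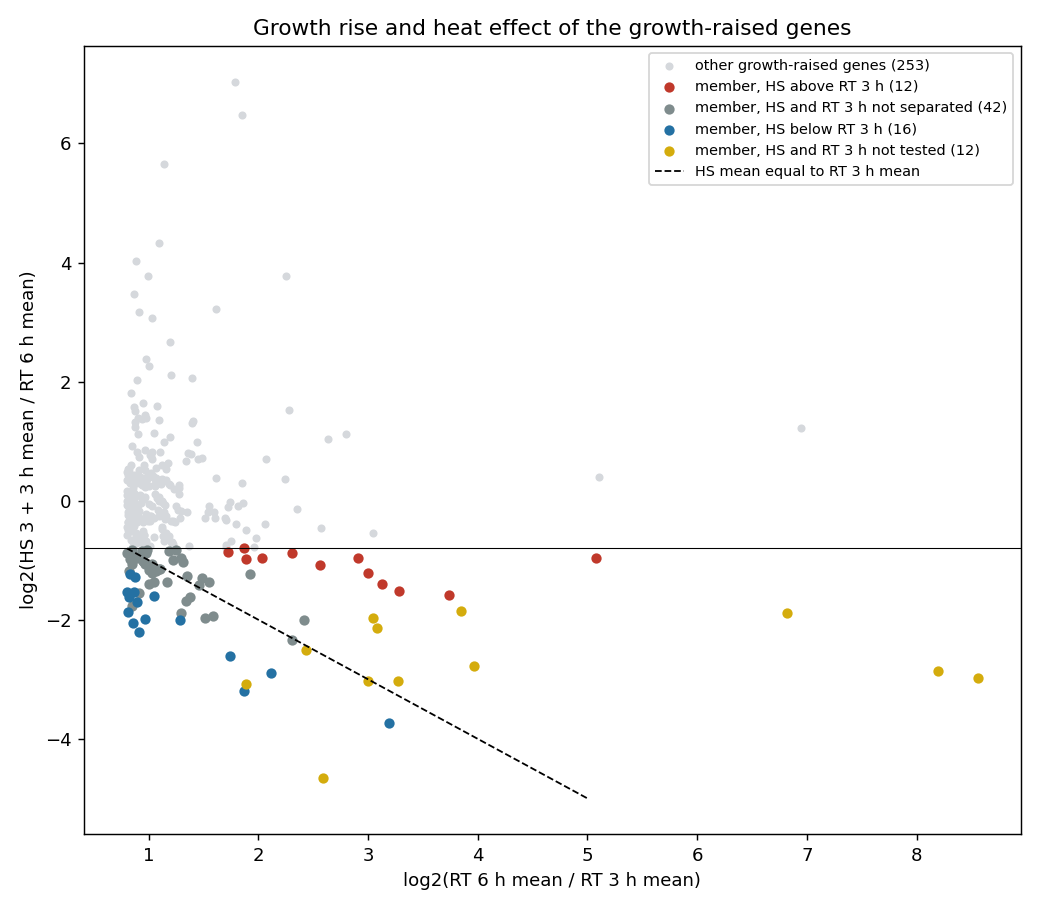
Log2 ratio of RT 6 h to RT 3 h means (horizontal) against log2 ratio of the means under HS 3 + 3 h and at RT 6 h (vertical) for the 335 genes raised by growth, where each point is a gene, the horizontal line is the heat limit at -0.8 and the dashed line marks equal HS and RT 3 h means. The 82 genes lie under the line by their choice, with genes above RT 3 h right of the dashed line and genes below RT 3 h left of it.

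Among the 253 other growth-raised genes, the median log2 ratio of HS to RT 6 h was -0.01 and that of HS to RT 3 h was 1.16. The heat limit itself separates the 2 sets in these ratios. Structure was not used by the rule. On the deposited TN90 annotation the 82 genes had a median span of 2950 bases, against 4078 bases for the other growth-raised genes and 4780 bases for all genes past the filter. Their median summed exon length was 1363 bases, against 1794 and 1706 bases in those sets. They had a median of 3 exon blocks, against 5 in each of the other sets, and 14 of them (17.1%) were of a single block, against 12.6% and 7.07%. Gene models without a coding sequence numbered 13 (15.9%), against 13.4% of the other growth-raised genes and 11.5% of all. The 17127 genes with an RT 6 h mean of at least 1 CPM had a median span of 4895 bases. Of these, 6.44% were of a single block and 9.72% had no coding sequence. In a table of the K326 assembly, 72 of the 82 were found, 61 as protein coding, 9 as lncRNA, 1 as misc_RNA and 1 as pseudogene. These shares were not tested, and K326 types were not counted for other genes.

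The 82 genes lay on 81 scaffolds, and none overlapped another annotated gene. The only neighbors among them were LOC107767014 (scaffold NW_015887115.1, 1350 to 2158, minus strand) and LOC107767015 (3042 to 3664, same strand), 883 bases apart. LOC107767014 had 1.48, 1.42 and 1.64 CPM under HS, 3.47, 3.71 and 3.13 CPM at RT 6 h, and 1.51, 1.78 and 1.65 CPM at RT 3 h. LOC107767015 had 1.04, 0.913 and 0.411 CPM under HS, 2.05, 1.57 and 1.96 CPM at RT 6 h, and 0.580, 0.376 and 0.512 CPM at RT 3 h. In both genes the HS and RT 3 h libraries overlapped, and neither was separated in the test. Genes outside the 82 could lie close by on the same strand. LOC107818315 was 109 bases from LOC107818313, and LOC107790064 was 133 bases from LOC107790065. If reads of such neighbors entered the counts was not tested.

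The 10 most abundant genes at RT 6 h showed the range of outcomes. LOC107818313 (NW_015818817.1, 16028 to 19728, plus strand, protein coding) had 9.06, 10.46 and 9.94 CPM under HS, 22.7, 22.9 and 26.1 CPM at RT 6 h, and 13.8, 13.0 and 12.3 CPM at RT 3 h. Every HS library lay below every RT 3 h library, and the gene fell below its RT 3 h level with a log2FC of -0.40 (SE = 0.09, FDR = 0.000597 by edgeR). LOC107791608 (NW_015920003.1, 24291 to 29410) behaved alike, with 8.09, 8.63 and 8.16 CPM under HS, 20.5, 18.7 and 19.0 CPM at RT 6 h, and 11.1, 11.2 and 10.4 CPM at RT 3 h. Its log2FC of HS against RT 3 h was -0.40 (SE = 0.10, FDR = 0.000912), with no overlap of the libraries. The gene LOC107816722, a pseudogene in the K326 table, had 6.09, 4.43 and 5.06 CPM under HS, 14.6, 14.9 and 18.3 CPM at RT 6 h, and 8.44, 8.75 and 9.92 CPM at RT 3 h. It fell further, with a log2FC of -0.83 (FDR = 6.5e-07).

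LOC107811514 had 6.98, 7.54 and 9.17 CPM under HS, 21.05, 24.4 and 22.8 CPM at RT 6 h, and 6.15, 15.0 and 16.2 CPM at RT 3 h. RT 3 h replicate 1 lay below the HS libraries, with 159 counts where the other RT 3 h replicates had 440 and 443. The log2FC of HS against RT 3 h was -0.66 (FDR = 0.00431 by edgeR), but the FDR was 0.229 by DESeq2 and 0.0628 without RT 3 h replicate 3, and without RT 3 h replicate 1 the log2FC was -0.98 (FDR = 2.99e-21). LOC107821803 had a steep growth rise, with 1.34, 1.10 and 0.958 CPM under HS, 15.4, 12.5 and 16.97 CPM at RT 6 h, and 2.01, 1.33 and 1.57 CPM at RT 3 h. Under HS it was 7.56% of its RT 6 h level, and the HS libraries reached into the RT 3 h range. Its log2FC against RT 3 h of -0.57 was at the FDR limit (0.0490 by edgeR, 0.164 by DESeq2, 0.0570 with no filter on low counts). Leaving out HS replicate 2 or 3, or likewise RT 3 h replicate 1 or 3, put it over the limit, with FDRs of 0.0628 to 0.201.

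**Figure D3:**
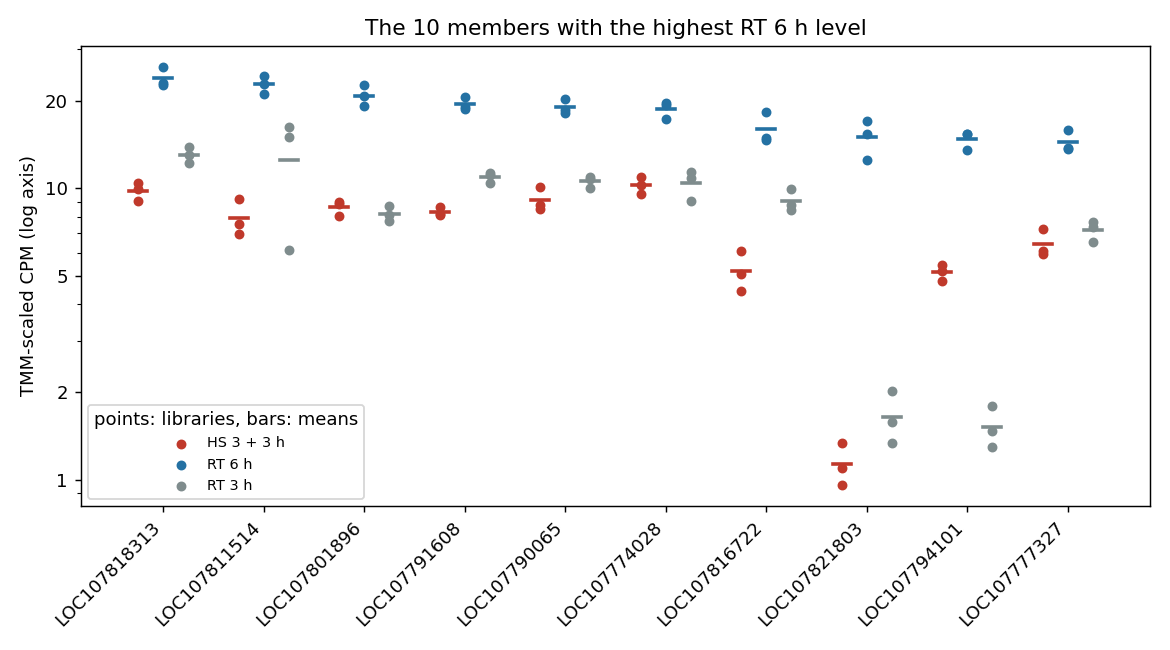
TMM-scaled CPM (log axis) of the 10 genes with the highest RT 6 h means, where points are libraries and bars are means of HS 3 + 3 h, RT 6 h and RT 3 h. RT 6 h lies above both other conditions by the choice of genes, HS lies above RT 3 h without overlap for LOC107794101, and 1 RT 3 h library of LOC107811514 stands apart at 6.15 CPM.

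Of these 10 genes, 4 were not separated from RT 3 h under HS. LOC107801896 had 8.84, 8.997 and 8.03 CPM under HS, 20.7, 22.6 and 19.2 CPM at RT 6 h, and 8.67, 7.72 and 8.12 CPM at RT 3 h, and the HS and RT 3 h libraries overlapped. The interval of its log2FC between HS and RT 3 h was -0.14 to 0.28, and without TMM the log2FC was -0.22. LOC107774028, an lncRNA in the K326 table, had 10.9, 10.2 and 9.58 CPM under HS, 17.3, 19.6 and 19.3 CPM at RT 6 h, and 9.06, 11.3 and 10.8 CPM at RT 3 h. The interval for it was -0.25 to 0.17. LOC107777327 had an interval of -0.43 to 0.05, with means of 6.43 ± 0.739 CPM under HS, 14.4 ± 1.23 CPM at RT 6 h and 7.19 ± 0.588 CPM at RT 3 h (SD, n = 3 each). For LOC107790065 the interval was -0.42 to -0.01, with means of 9.13 ± 0.875 CPM under HS, 18.97 ± 1.142 CPM at RT 6 h and 10.6 ± 0.481 CPM at RT 3 h, and its adjusted p-value missed the limit (FDR = 0.0785 by edgeR). It was below RT 3 h without RT 3 h replicate 1 (FDR = 0.0272), without HS replicate 3 (FDR = 0.04) and without TMM (FDR = 0.000121). With any other library left out the FDR was 0.123 to 0.308, and by DESeq2 it was 0.181.

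LOC107794101 (NW_015923454.1, 43464 to 44210, plus strand, 1 exon block) was, by RT 6 h level, the most abundant of the 12 genes called above RT 3 h. The study's list of transcriptional regulators places it with the C2H2 zinc finger proteins, and its closest Arabidopsis gene is AT2G17180, DAZ1, which in Arabidopsis encodes a repressor that acts in the male germline. It had 5.197, 4.795 and 5.47 CPM under HS, 15.3, 15.4 and 13.6 CPM at RT 6 h, and 1.47, 1.30 and 1.79 CPM at RT 3 h. All HS libraries were above all RT 3 h libraries and below all RT 6 h libraries. It was 3.39-fold higher under HS than at RT 3 h (log2FC = 1.75, SE = 0.16, FDR = 7.79e-11 by edgeR), and 27.4% of its growth rise was left.

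All 12 genes above RT 3 h had HS libraries that did not overlap with RT 3 h. No other gene of the 70 lay above RT 3 h without overlap, which makes 17.1% of the 70, against 28.7% of all genes tested. They kept between 27.4% and 50.1% of the growth rise, with a median of 35.4%. By the rule's arithmetic, the log2 ratio of HS to RT 3 h is at most the growth ratio minus 0.8. The 12 had a median log2 ratio of RT 6 h to RT 3 h of 2.73, against 1.06 in the 42 genes not separated and 0.90 in the 16 below. LOC107770959 (NW_015891072.1, 111769 to 115755) had 2.52, 3.29 and 3.56 CPM under HS, 8.87, 10.1 and 8.92 CPM at RT 6 h, and 0.426, 0.684 and 0.988 CPM at RT 3 h. Its log2FC of HS against RT 3 h was 2.166 (SE = 0.24, FDR = 2.07e-09). LOC107778634 had 2.08, 1.42 and 1.78 CPM under HS, 3.68, 4.59 and 4.03 CPM at RT 6 h, and 0.580, 0.444 and 0.512 CPM at RT 3 h. It rose with a log2FC of 1.74 (SE = 0.27, FDR = 2.14e-06).

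LOC107792716 (NW_015921513.1, 16799 to 20309, minus strand, 9 exon blocks) kept the most of its growth rise, 50.1%. It had 9, 27 and 27 counts in the HS libraries, 41, 66 and 47 counts at RT 6 h, and 1, 2 and 2 counts at RT 3 h. On depth-scaled summed counts the HS level was 18.1 times the RT 3 h level, with an exact 95% interval of 7.37 to 57.8 that covers counting error only. Its FDR in the fit was 1.62e-08 by edgeR. The gene passed the filter of this comparison only through its HS libraries, so the call is a description. LOC107768111 had 1.04, 0.731 and 0.775 CPM under HS, 2.68, 2.26 and 1.76 CPM at RT 6 h, and 0.271, 0.239 and 0.256 CPM at RT 3 h (log2FC of HS against RT 3 h = 1.67, FDR = 0.000356). LOC107787158, a model without coding sequence, had 0.594, 0.731 and 0.775 CPM under HS, 1.34, 1.87 and 0.899 CPM at RT 6 h, and 0.232, 0.205 and 0.110 CPM at RT 3 h (log2FC = 1.93, FDR = 0.000249). The other 6 of the 12 were LOC107759407, LOC107783799, LOC107826752, LOC107790414, LOC107824045 and LOC107783737, with log2FCs between 0.83 and 1.43. LOC107768111, LOC107787158 and LOC107783737 likewise passed the filter only through their HS libraries.

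The 16 genes below RT 3 h had a median log2 ratio of HS to RT 3 h of -0.79, and they fell between 1.32-fold and 2.50-fold. In 13 of the 16 no library overlapped. Of the 70 genes tested, 16 lay below RT 3 h without overlap (22.9%), against 27% of all genes tested. LOC107782747 (NW_015908932.1, 86286 to 88901, minus strand), an lncRNA in the K326 table, was 1 of 2 genes that passed both limits. It had 2.75, 2.19 and 2.01 CPM under HS, 11.2, 10.6 and 10.4 CPM at RT 6 h, and 6.11, 5.43 and 5.56 CPM at RT 3 h. It fell with a log2FC of -1.34 against RT 3 h (SE = 0.15, FDR = 4.2e-09 by edgeR), which put it below its level at heat onset. LOC107830712 (NW_015858294.1, 104567 to 110896) was the other gene, with 2.08, 1.69 and 1.82 CPM under HS, 7.57, 7.42 and 8.17 CPM at RT 6 h, and 3.60, 4.37 and 4.79 CPM at RT 3 h. Its log2FC against RT 3 h was -1.22 (SE = 0.17, FDR = 3.16e-07).

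Lower genes of this set rested on few reads. LOC107828722 had 4, 10 and 13 counts in the HS libraries, 43, 44 and 47 counts at RT 6 h, and 20, 23 and 32 counts at RT 3 h. Its log2FC of HS against RT 3 h was -0.95 (FDR = 0.0187 by edgeR), but 0.0818 by DESeq2 and 0.0613 to 0.0993 without HS replicate 1 or 2 or RT 3 h replicate 3. LOC107795328 had 5, 6 and 8 counts under HS, 27, 29 and 37 counts at RT 6 h, and 14, 22 and 22 counts at RT 3 h, with a log2FC of -1.08 (FDR = 0.0177). By DESeq2 the FDR was 0.0938, without RT 3 h replicate 3 it was 0.0518, and without HS replicate 2 it was 0.0823. LOC107803782 was among the 6 lowest log2FCs at -0.89, but did not pass (FDR = 0.0686). Its HS libraries had 0.297, 0.320 and 0.319 CPM, its RT 6 h libraries 1.09, 0.956 and 1.13 CPM, and its RT 3 h libraries 0.813, 0.444 and 0.512 CPM.

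**Figure D4:**
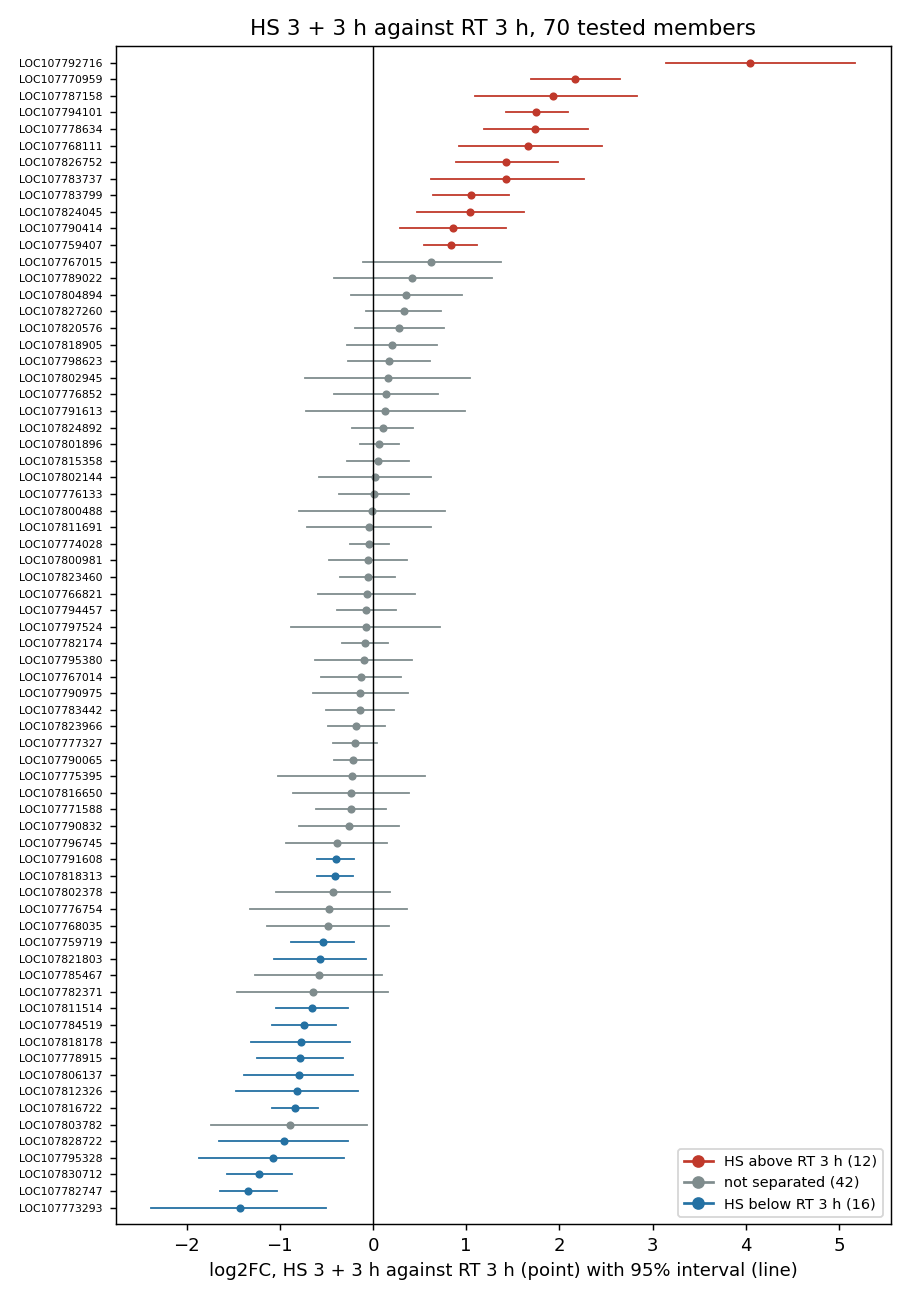
Log2FC of HS 3 + 3 h against RT 3 h by edgeR (points) with 95% intervals (lines) for the 70 genes tested, ordered by log2FC. 12 genes lie above RT 3 h at an FDR of at most 0.05 (red), 16 below (blue), and 42 are not separated (gray), with LOC107792716 highest and LOC107773293 lowest.

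Homologs of the Arabidopsis genes MIOX2 and BAP2 were found among the 82 genes. MIOX2 encodes a myo-inositol oxygenase, which opens inositol to glucuronic acid, a precursor of cell wall sugars. Both tobacco genes assigned to it here belong to the 82. They are named in the paper's selection of genes changed by heat, so copies that heat left unchanged could be missing here. LOC107773293 (NW_015897649.1, 6218 to 9912, plus strand) had 0.371, 0.137 and 0.182 CPM under HS, 1.76, 1.61 and 2.93 CPM at RT 6 h, and 0.697, 0.444 and 0.585 CPM at RT 3 h. All its HS libraries lay below all RT 3 h libraries, and its log2FC of -1.42 (SE = 0.46, FDR = 0.00934 by edgeR) was the lowest of the 70. That fall was not separated by DESeq2 (FDR = 0.0599) or without HS replicate 2 (FDR = 0.0670). The other homolog, LOC107824234 (NW_015836890.1, 4 to 2442, minus strand), had 2, 3 and 3 counts in the HS libraries, 19, 26 and 42 counts at RT 6 h, and 3, 7 and 0 counts at RT 3 h. Its depth-scaled HS level was 1.15 times the RT 3 h level with a counting interval of 0.395 to 3.24, so that no difference was detectable at this depth.

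BAP2 in Arabidopsis encodes a partner of the copine BON1 that restrains cell death. Its homolog LOC107799833 (NW_015931746.1, 62572 to 63314, minus strand) had 0, 2 and 1 counts in the HS libraries, 30, 22 and 35 counts at RT 6 h, and 2, 6 and 8 counts at RT 3 h. The HS and RT 3 h libraries overlapped, while all RT 6 h libraries lay above both. On depth-scaled summed counts HS was 0.270 times RT 3 h (interval 0.0504 to 0.942) and 0.0455 times RT 6 h (interval 0.00921 to 0.137), the lowest HS share among the 82. It was not tested on the 6 libraries of HS and RT 3 h.

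Transcriptional regulators were 5 of the 82, beside 1319 distinct genes of the study's list among all 24013 genes past the filter. None of the 82 was among the 709 distinct genes of its lipid list, which are a small part of the 24013. Nothing is read from either count. Both lists were drawn from genes expressed in these libraries. Between HS and RT 3 h, 115 of 1296 regulators tested rose past both limits and 67 fell, and among the lipid genes 23 of 704 rose and 38 fell. Of the 5 regulators, LOC107794101 rose and the other 4 were not separated. In the MYB family, 4 of 53 genes rose and 2 fell in that comparison, and the 2 genes among the 82 are homologs of MYB73 (AT4G37260), which in Arabidopsis is known from salt stress responses. LOC107820576 had 1.86, 1.37 and 1.46 CPM under HS, 2.26, 3.02 and 3.17 CPM at RT 6 h, and 1.24, 1.54 and 0.951 CPM at RT 3 h. LOC107791613 had 0.594, 0.548 and 0.274 CPM under HS, 1.67, 0.803 and 1.02 CPM at RT 6 h, and 0.580, 0.376 and 0.293 CPM at RT 3 h. HS and RT 3 h overlapped in both, with intervals of the log2FC of -0.20 to 0.77 and -0.72 to 0.99.

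A further pair of MYB73 homologs was outside the 82. LOC107799420 averaged 2.51 ± 0.0890 CPM under HS, 2.07 ± 0.197 CPM at RT 6 h and 1.72 ± 0.258 CPM at RT 3 h, and LOC107767835 averaged 0.592 ± 0.207 CPM under HS, 0.566 ± 0.0918 CPM at RT 6 h and 0.436 ± 0.0613 CPM at RT 3 h (SD, n = 3 each). Neither was separated between HS and RT 6 h (log2FC = 0.27, interval -0.09 to 0.63, and -0.02, interval -0.75 to 0.72). Against RT 3 h, LOC107799420 was higher under HS (log2FC = 0.53, FDR = 0.0184 by edgeR) and LOC107767835 was not separated (log2FC = 0.35, FDR = 0.454). LOC107800981, a homolog of the B-box protein gene BBX28 (AT4G27310), had 2.08, 1.55 and 2.28 CPM under HS, 4.77, 4.40 and 3.25 CPM at RT 6 h, and 2.21, 1.57 and 2.31 CPM at RT 3 h. HS and RT 3 h overlapped, with an interval of -0.47 to 0.37. The other BBX28 homologs were LOC107762308, with 8.22 ± 1.18 CPM under HS, 7.30 ± 0.927 CPM at RT 6 h and 6.94 ± 0.302 CPM at RT 3 h, and LOC107795590, with 5.63 ± 0.389 CPM under HS, 4.001 ± 0.352 CPM at RT 6 h and 3.69 ± 0.593 CPM at RT 3 h. LOC107795590 rose under HS against RT 6 h with a log2FC of 0.50 (FDR = 0.000851 by edgeR). Against RT 3 h it was higher under HS too (log2FC = 0.61, FDR = 0.00041), while LOC107762308 was not separated (log2FC = 0.22, FDR = 0.109).

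**Figure D5:**
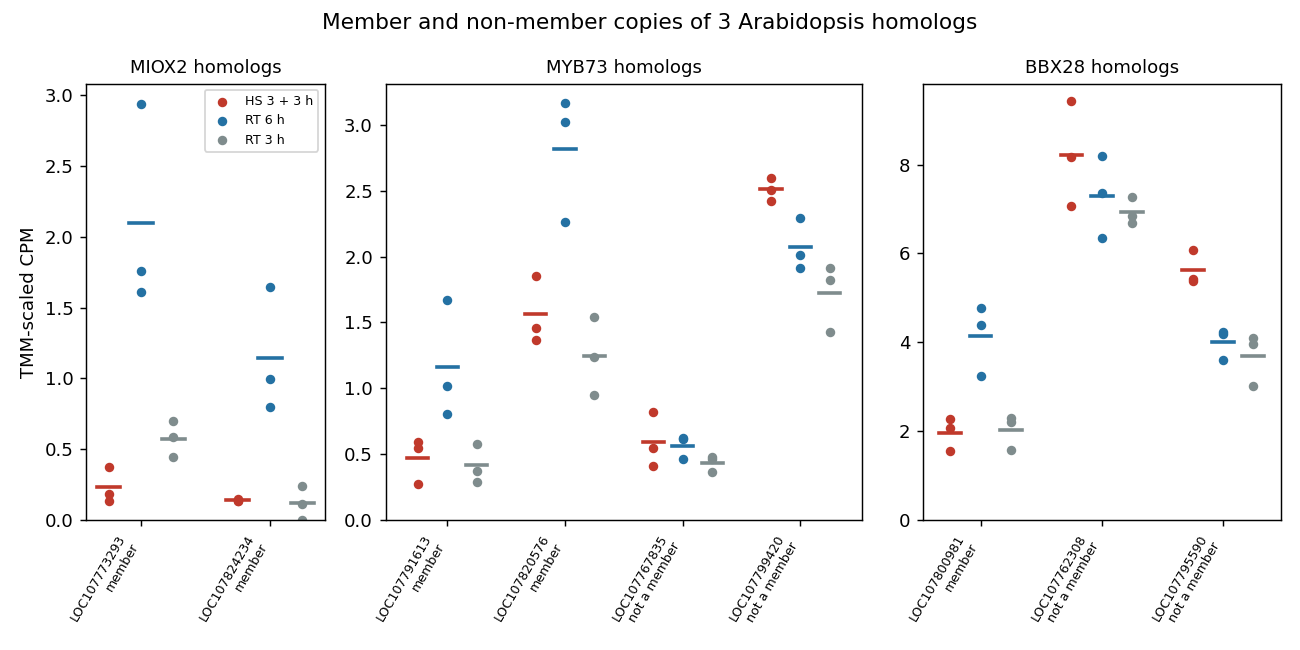
TMM-scaled CPM of homologs of MIOX2, MYB73 and BBX28, where points are libraries and bars are means of HS 3 + 3 h, RT 6 h and RT 3 h. Both MIOX2 homologs shown belong to the 82, and copies unchanged by heat could be missing. LOC107799420, LOC107767835, LOC107762308 and LOC107795590 do not belong to the 82, and in these 4 the RT 6 h mean lies below the HS mean.

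LOC107768035, a homolog of the BTB and TAZ domain protein gene BT1 (AT5G63160), had 1.19, 0.457 and 0.547 CPM under HS, 2.13, 1.80 and 3.13 CPM at RT 6 h, and 0.813, 1.06 and 0.915 CPM at RT 3 h. HS replicate 1 lay above all RT 3 h libraries and the other 2 below, and the interval of the log2FC was -1.141 to 0.17. Homologs of further Arabidopsis genes were singled out after their values were seen. LOC107827260, a homolog of GASA14 (AT5G14920), a gibberellin-regulated cell wall protein gene, averaged 2.28 ± 0.272 CPM under HS, 4.41 ± 0.0907 CPM at RT 6 h and 1.80 ± 0.338 CPM at RT 3 h. LOC107818905, a homolog of AMR1 (AT1G65770), which in Arabidopsis lowers ascorbate synthesis, averaged 1.35 ± 0.269 CPM under HS, 2.39 ± 0.222 CPM at RT 6 h and 1.21 ± 0.132 CPM at RT 3 h. LOC107790832, a homolog of the cation efflux protein gene AT1G16310, averaged 0.968 ± 0.332 CPM under HS, 2.49 ± 0.214 CPM at RT 6 h and 1.204 ± 0.0977 CPM at RT 3 h. None of these 3 was separated between HS and RT 3 h.

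A homolog of AT3G07250, LOC107776852, was the only gene of the 82 whose HS and RT 6 h libraries overlapped (24.1% of all genes tested lay below RT 6 h without overlap), with 1.56, 0.822 and 1.00 CPM under HS, 2.59, 1.53 and 2.62 CPM at RT 6 h, and 0.813, 1.06 and 1.02 CPM at RT 3 h. A further homolog of the same Arabidopsis gene, LOC107792595, missed the heat limit and was higher under HS than at RT 3 h, with means of 1.59 ± 0.254 CPM under HS, 2.66 ± 0.358 CPM at RT 6 h and 0.819 ± 0.288 CPM at RT 3 h (log2FC of HS against RT 3 h = 0.95, FDR = 0.00308 by edgeR).

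The 12 genes not tested between HS and RT 3 h had a median log2 ratio of RT 6 h to RT 3 h of 3.18, with a range of 1.89 to 8.56. LOC107832826 had 7, 11 and 16 counts in the HS libraries, 103, 141 and 105 counts at RT 6 h, and 0, 0 and 1 counts at RT 3 h. LOC107819575 was alike, with 7, 12 and 11 counts under HS, 86, 99 and 101 counts at RT 6 h, and 1, 0 and 0 counts at RT 3 h. LOC107776404 had 4, 9 and 9 counts under HS, 23, 48 and 34 counts at RT 6 h, and 0, 0 and 1 counts at RT 3 h. In these 3 genes, HS libraries lay above all RT 3 h libraries and below all RT 6 h libraries. On depth-scaled summed counts, HS was 48.9 times RT 3 h in LOC107832826 (interval 8.21 to 1988), 43.2 times in LOC107819575 (interval 7.18 to 1761) and 31.7 times in LOC107776404 (interval 5.12 to 1306). The share of the growth rise left was nevertheless 12.5%, 13.6% and 26.4%.

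A fit over all 9 libraries tested all 82 genes, and its use for the 12 was chosen after seeing the data. They passed its filter with the help of their RT 6 h libraries, in which the choice made them high, so its values are given as a description and nothing is read from how many it called. LOC107832826, LOC107819575 and LOC107776404 were above RT 3 h in this fit too. LOC107805391 had 6, 8 and 11 counts under HS, 35, 38 and 47 counts at RT 6 h, and 4, 3 and 2 counts at RT 3 h (log2FC = 1.95, SE = 0.51, FDR = 0.00135 by edgeR). LOC107766132, with 0.520, 0.548 and 0.411 CPM under HS, 3.05, 4.02 and 4.93 CPM at RT 6 h, and 0.619, 0.444 and 0.439 CPM at RT 3 h, was not separated (log2FC = -0.03, interval -0.78 to 0.73). The remaining 7 of the 12, the MIOX2 homolog LOC107824234 and the BAP2 homolog LOC107799833 included, were not separated either, with log2FCs of -1.79 to 1.09 (FDR of 0.0623 and above).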

How the data were processed

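Transcript levels of tobacco pollen tubes were measured by RNA sequencing in 9 libraries. The authors prepared non-stranded mRNA libraries, aligned single-end reads to the TN90 genome and deposited whole-number read counts per gene without normalization. The submitters' processing notes name bcl2fastq 2.17.1.14, STAR 2.5.2a and featureCounts 1.5.0-p1. How reads aligning to several places were counted is not given in the sources used here. Condition and replicate of a library come from its deposited labels. Gene positions are those of the TN90 annotation deposited with the counts, and 0 columns of per-sample values were left unmapped.

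Levels are CPM on TMM-scaled library sizes. Comparisons were fitted with the quasi-likelihood test of edgeR 4.0.16 (R 4.3.3) on the 6 libraries involved, for genes exceeding 0.5 CPM, for this filter on library sizes without TMM, in 2 or more of them, with Benjamini-Hochberg adjustment over all genes tested. Calls used the paper's limits, an absolute log2FC above 1 and an FDR of at most 0.005, or an FDR of at most 0.05 of any size. Intervals are 95% intervals around the log2FC of the fit before edgeR's shrinkage toward 0. They and the SEs were derived from the F statistic of the quasi-likelihood test. The log2FCs given are those after shrinkage, so they need not lie at the center of the interval. The code was tested on simulated data with known changes. These were planted only in genes with ample counts and with a fixed spread between libraries, so the check does not cover genes with few counts. Where every library of a condition held at most 3 counts, the ratio of summed counts is given with an exact binomial (Clopper-Pearson) interval, which covers counting error only.

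The members and gene lists were chosen with earlier results of these data known. Named singly were the 10 genes with the highest RT 6 h mean, the 6 highest and 6 lowest log2FCs of HS against RT 3 h, genes in the study's regulator and lipid lists or tables of named genes, homologs with 2 members, and the 3 genes on each side of each limit. Others named were chosen after their values were seen, as were the marker genes, which were found by synonym in a RefSeq table of the K326 assembly or by homolog. Arabidopsis homologs are those of the study's tables, part of which was held only in shortened form, so other members may have homologs not given here. Names of Arabidopsis genes beyond those tables are background. Alternatives were DESeq2 1.42.0, DESeq2's size factors, no TMM, other filters, a likelihood ratio test, one fit of all 9 libraries, a replicate block, other limits, and each library left out. Replicates differed by more than sampling noise (chi-square of 1.49 or more per degree of freedom). The value was highest for RT 3 h replicate 1, at 2.92 against replicate 2 and 4.41 against replicate 3. All other pairs had 1.49 to 2.03. Sequences were not used here. Gene positions, scaffold neighbors and figures were made in Python 3.11.15 with pandas 2.3.3 and matplotlib 3.10.9, and the other values in R 4.3.3.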

Additional observations from a re-analysis of the deposited data

How the results depend on the processing

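Over the main counts and the median, 102 values under the alternatives stayed within 1.5 times the main count or within the spread of the replicates, and 10 moved. These values include the number of genes by the rule and the calls in its 2 comparisons, whose directions the choice fixed. Nothing is read from how many stayed. With at least 10 counts in every library, 6 genes were higher under HS than at RT 3 h among the 48 left, and 37 were lower under HS than at RT 6 h among the 50 left. Without TMM, genes lower under HS than at RT 3 h were 11 past both limits and 30 of any size, and the median log2 ratio of HS to RT 3 h was -0.34. That scaling moved the median log2FC of all genes by -0.28 in HS against RT 3 h and the share of higher calls to 31.2%, from 59.9% with TMM. An FDR limit of 0.05 with the log2FC limit gave 4 lower genes, and DESeq2 gave 8 lower of any size. Limits of 1 and 0.6 on the log2 scale gave 44 and 174 genes, and without TMM the rule found 79 genes, 63 of them shared. With each library left out, 7 to 10 genes were higher and 2 to 2 lower under HS than at RT 3 h, 10 to 16 were lower at any size, and the rule found 77 to 92 genes.

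Of the named genes' log2FCs of HS against RT 3 h, 10 changed sign, all of them in genes that were not separated. Without TMM these were LOC107801896 (-0.22), LOC107820576 (-0.0013) and LOC107791613 (-0.15). With 1 library left out they were LOC107774028 (range -0.14 to 0.011), LOC107800981 (range -0.23 to 0.12) and LOC107791613 (range -0.071 to 0.45). The cause was not tested. If replicate numbers pair the samples was not settled. With condition means removed, same-numbered RT 6 h and RT 3 h libraries correlated at 0.0182 to 0.1061, and differently numbered ones at -0.078 to 0.0226. In the comparisons with HS, same-numbered libraries correlated at -0.0186 to 0.0138, and differently numbered ones at -0.0355 to 0.0271. With the replicate number as a block, 9 genes were higher and 2 lower under HS than at RT 3 h, 12 and 15 at any size (LOC107821803 was over the limit, FDR = 0.0619 by edgeR), 55 were higher at RT 6 h than at RT 3 h, and 62 were lower under HS than at RT 6 h. At about 1 CPM, differences of HS from RT 3 h smaller than the intervals given were not detectable at this depth. Promoter motifs and lists by product name were not run.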
